A study of Mus musculus with 2 samples.

Results

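The cyclin and cyclin-dependent kinase (CDK) genes were taken from the table of gene activity in C2C12 myoblasts by their symbols, as every row whose symbol is Ccn followed by a letter with further letters or digits, or Cdk followed by a number with or without an a or b. This rule found 54 RefSeq entries of 47 gene symbols among 24165 entries of 20128 symbols. C2C12 is a mouse myoblast cell line that can form muscle fibres in culture. The 2 replicate libraries came from untreated cells at 80% confluency in medium with 10% fetal bovine serum, with 4 plates of 10 cm for each nuclei isolation, so that all cells belong to a single group with no control. Transcription was measured by GRO-seq, in which polymerases already on a gene in isolated nuclei extend their RNA with bromouridine and the tagged RNA is pulled down for sequencing. Gene activity is the density of reads on the sense strand of the gene body, which starts 1 kb past the transcription start site (TSS), in RPKmM, a form of RPKM that divides by the mappable length. It is a level per length, so differences in gene length are accounted for. Whether other properties of a gene affect its level was not tested, which limits every fold between genes below. The authors pooled both libraries, and the word Inactive stands for a gene that did not pass their test against gene deserts. Each entry therefore has a single value with no error, n or test, and no difference below has a replicate check. The table gives no read counts, and no number of reads per gene was computed here. The labels name no synchronisation, and a higher level per cell and more cells in the phase that uses a gene cannot be told apart.

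Cyclins are proteins that bind a CDK and switch on its kinase activity. Some pairs drive the cell cycle, as cyclin D with Cdk4 or Cdk6 in G1, cyclin E with Cdk2 at the entry to S phase, and cyclins A and B with Cdk1 up to mitosis. Other pairs act on RNA polymerase II and its products, such as cyclin T with Cdk9, which releases paused polymerase into elongation, and they are used throughout the cycle. In myoblasts, exit from the cell cycle accompanies fusion into muscle fibres.

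The labelled cell type was checked against marker genes. All 6 myoblast markers were active, from 2.39 RPKmM for Myod1 to 72.45 for Des, while 5 of 7 markers of other cell types were listed as inactive and the remaining ones, Pecam1 and Gfap, stood at 0.01. Among genes of differentiated muscle, Myog stood at 2.39 and Acta1 at 6.85, while Ckm (0.2) and Myh4 (0.14) were low. The share of cells that had begun to differentiate was not tested.

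The promoters of Cdk1, Ccnb1, Ccnb2 and Ccnf hold sequence elements known from cell cycle control, but not each of them holds every element. Such elements also occur in many other promoters, with the shares given below. These promoters are shown because the most active member, Cdk1, is among them. RefSeq promoter windows (assembly GRCm38.p6), which run from 250 bases before the TSS to 50 bases after it, were given for 38 of the 47 genes, as 40 windows. Each window matched the mm9 sequence exactly at a single place, and mm9 positions are given. No window was used for Ccna2, Ccnd1, Ccnd2, Ccne2, Ccnh, Ccny, Cdk5, Cdk17 and Cdk19. Cdk1 lies at chr10:68815611-68815910, Ccnb1 (cyclin B1) at chr13:101556392-101556691, Ccnb2 (cyclin B2) at chr9:70269312-70269611 and Ccnf (cyclin F) at chr17:24388305-24388604. Ccnl1, shown as the transcription gene with the highest gene value, lies at chr3:65762122-65762421, and all these windows are on the minus strand. Ccnl1 (6.28 RPKmM) was close to Cdk12, whose entries had 6.52 and 5.85. Capitals mark the CCAAT box (CCAAT), the cell cycle homology region (CHR, TTTGAA) and E2F-type motifs (TTCCCGC or TTGGCGC), searched on both strands. An E2F-type motif can share bases with a CCAAT box, as in Ccnb1.
Cdk1: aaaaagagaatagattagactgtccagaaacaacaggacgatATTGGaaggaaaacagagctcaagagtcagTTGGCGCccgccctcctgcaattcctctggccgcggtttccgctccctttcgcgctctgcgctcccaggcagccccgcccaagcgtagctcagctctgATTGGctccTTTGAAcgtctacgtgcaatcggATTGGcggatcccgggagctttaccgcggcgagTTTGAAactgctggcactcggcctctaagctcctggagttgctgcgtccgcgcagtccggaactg
Ccnb1: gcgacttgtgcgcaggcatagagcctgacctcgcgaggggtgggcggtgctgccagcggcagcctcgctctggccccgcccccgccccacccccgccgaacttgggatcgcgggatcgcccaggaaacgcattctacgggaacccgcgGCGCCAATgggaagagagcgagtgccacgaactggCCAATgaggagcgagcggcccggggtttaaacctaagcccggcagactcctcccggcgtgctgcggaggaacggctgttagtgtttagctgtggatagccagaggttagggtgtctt
Ccnb2: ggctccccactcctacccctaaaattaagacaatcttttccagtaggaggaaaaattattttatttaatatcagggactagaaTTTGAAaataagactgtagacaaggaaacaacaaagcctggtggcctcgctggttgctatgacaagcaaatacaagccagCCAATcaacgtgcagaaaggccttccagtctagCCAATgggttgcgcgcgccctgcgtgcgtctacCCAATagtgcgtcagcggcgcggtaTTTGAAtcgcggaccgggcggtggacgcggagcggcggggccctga
Ccnf: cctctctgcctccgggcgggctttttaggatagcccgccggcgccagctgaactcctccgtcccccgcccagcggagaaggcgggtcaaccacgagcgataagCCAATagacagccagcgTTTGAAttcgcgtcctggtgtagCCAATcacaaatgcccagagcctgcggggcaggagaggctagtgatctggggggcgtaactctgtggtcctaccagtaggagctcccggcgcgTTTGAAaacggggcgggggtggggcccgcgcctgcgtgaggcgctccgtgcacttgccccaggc
Ccnl1: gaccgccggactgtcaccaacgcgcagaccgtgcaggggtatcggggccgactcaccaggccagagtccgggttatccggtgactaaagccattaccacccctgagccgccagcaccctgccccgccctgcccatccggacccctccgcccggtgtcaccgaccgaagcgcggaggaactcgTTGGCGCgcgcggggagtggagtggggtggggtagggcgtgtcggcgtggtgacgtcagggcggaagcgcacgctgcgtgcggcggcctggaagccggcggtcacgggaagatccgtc

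In the Cdk1 window, CCAAT boxes begin 208, 80 and 48 bases upstream of the TSS, a CHR at 71 and another at 15 bases upstream, and an E2F-type motif at 178. Ccnb1 has CCAAT boxes beginning 99 and 67 bases upstream, an E2F-type motif at 102, and no TTTGAA in the window. Ccnb2 has 3 CCAAT boxes, beginning 87, 54 and 21 bases upstream, and a CHR that begins 167 bases upstream and another at base 5 downstream. The boxes of Ccnb1 and the pair nearest the TSS in Cdk1 begin 32 bases apart and those of Ccnb2 33 bases apart, read in the same direction, while the remaining box of Cdk1 lies outside this spacing. A pair of CCAAT boxes 31 to 33 bases apart, a spacing chosen after these windows were seen, occurred in 3 of 12 windows of cell cycle genes, in none of 12 windows of transcription genes, and in 261 (0.794%) of all 32851 promoter windows of the RefSeq table. Ccnf has CCAAT boxes beginning 147 and 107 bases upstream and a CHR at 130 and another at 14 bases upstream.

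Over all members, a CCAAT box was found in 19 of 40 windows (47.5%, against 37.4% of all windows), with 7 of 12 for cell cycle genes and 5 of 12 for transcription genes. A CHR was found in 5 (12.5%, against 17.9%), with 3 of 12 for cell cycle genes, 0 of 12 for transcription genes and 2 of 16 for other members. Both motifs together were found in 4 windows (10.0%, against 6.95%), those of Cdk1, Ccnb2, Ccnf and the first of the windows of Cdk16. An E2F-type motif occurs in 3 of 12 cell cycle windows, those of Cdk1, Ccnb1 and Cdk2, and in 2 of 12 transcription windows, those of Ccnl1 and Ccnt2, against 6.81% of all windows. The GC box (GGGCGG, either strand) was found in 33 windows (82.5%, against 35.7%), among them all 12 of the transcription genes, and a TATA box (TATAAA) in 1, that of Cdk6 (against 13.6%). The windows of members had a median of 64.8% G and C, against 52.7% over all windows. A match of letters is a description of the sequence and not of binding, and it was not set against activity by any test.

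Nearly all cyclin and CDK genes were transcribed. Of the 47 genes, 44 (93.6%) had an active entry, against 68.7% of all symbols in the table. By RefSeq entry, 51 of 54 (94.4%) were active, against 70.2% of all entries. The inactive genes were Ccna1, a cyclin A known from the germ line, Ccnb3, a cyclin known from meiosis, and Ccnjl. Over all members, with inactive genes ranked lowest, the median activity was 2.20 RPKmM, against 0.26 over all symbols. An activity of at least 1 RPKmM was listed for 37 members (78.7%, against 31.4% of all symbols). At or above 1.96 RPKmM, the upper quartile of active symbols, lay 28 members (59.6%, against 17.2%). A gene with several active entries was given their median.

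**Figure D1:**
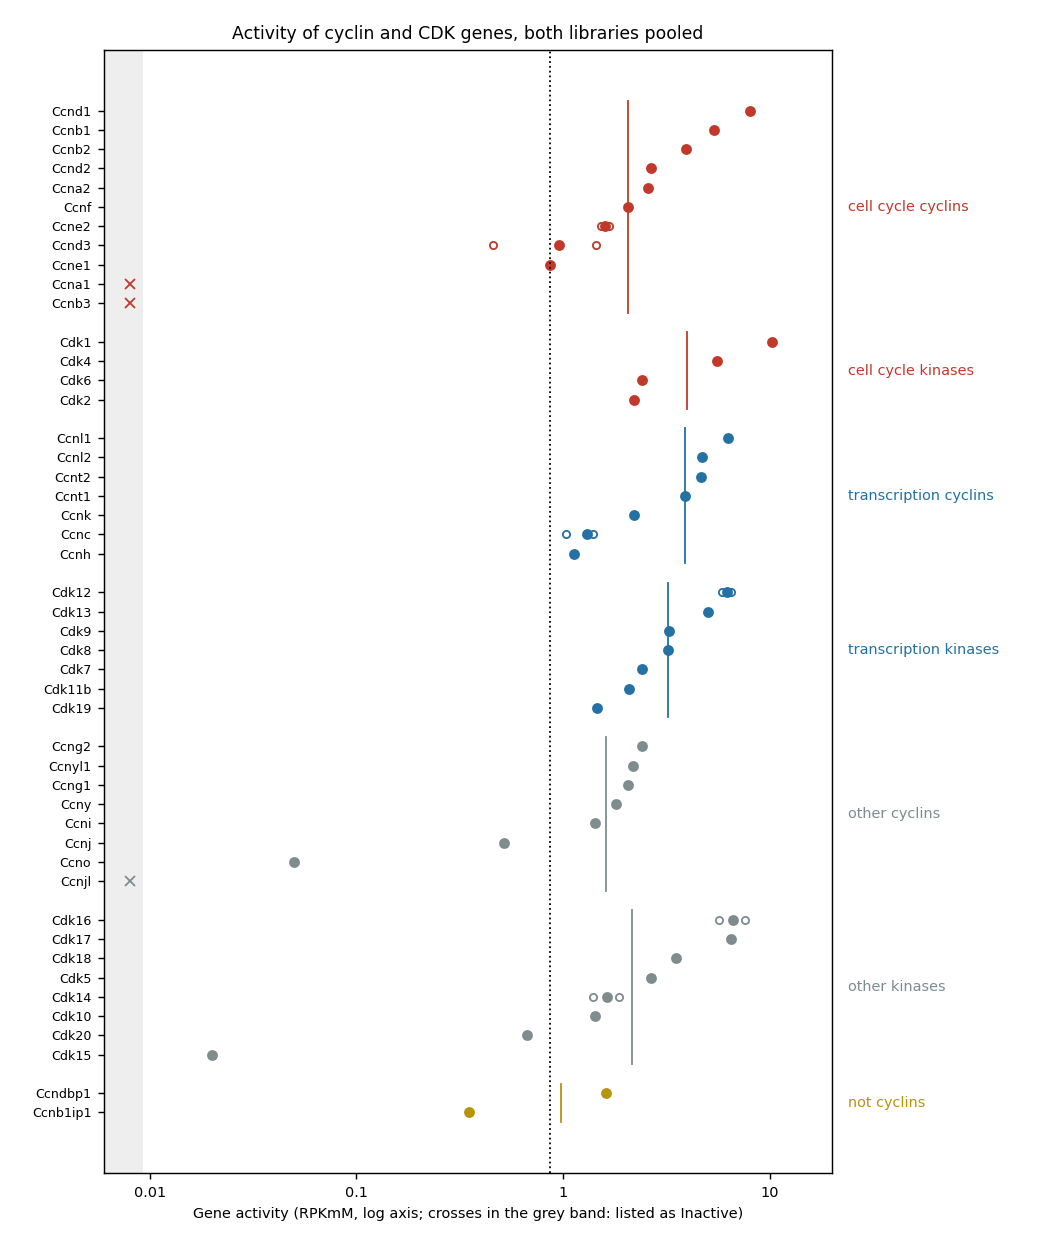
Gene activity (RPKmM, log axis) of each cyclin and CDK gene, ordered by activity within its list. Filled points are gene values, open points are the RefSeq entries of genes with several entries, crosses are genes listed as Inactive, vertical lines are list medians with inactive genes ranked lowest, and the dotted line is the median of all active symbols (0.86). Cdk1 (10.28) and Ccnd1 (8.05) are the highest, and Ccno (0.05) and Cdk15 (0.02) the lowest active genes.

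The order of the members ran from Cdk1 at 10.28 RPKmM to Cdk15 at 0.02. Only 376 symbols of the table lay above Cdk1, or 2.72% of active symbols. Ccnd1 followed at 8.05, Cdk16 at 6.65, Cdk17 at 6.52 and Ccnl1 at 6.28. Many neighbours in this order were close, as 27 of the 43 adjacent pairs of active genes were within 1.1-fold, so the order between them carries no weight without replicates. Below Ccnb1ip1 (0.35) the levels fell away, to 0.05 for Ccno and 0.02 for Cdk15, which are within a few steps of the rounding of the table to 2 decimals.

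**Figure D2:**
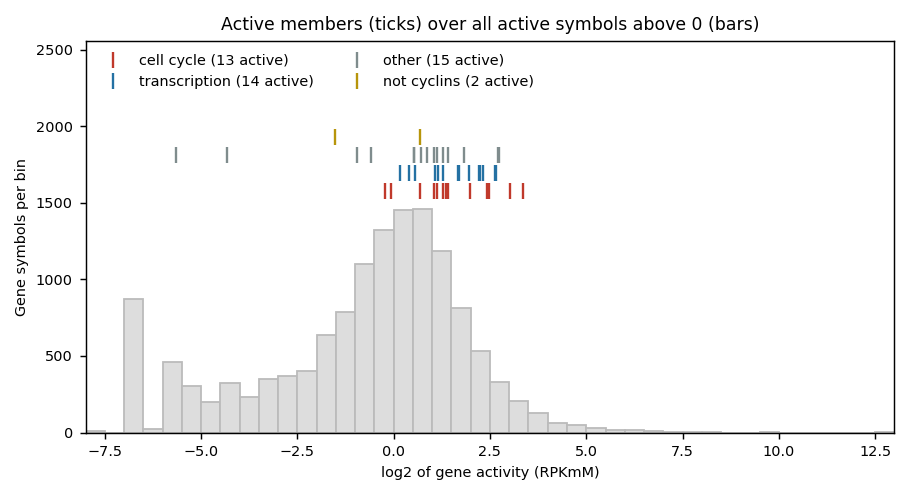
Number of gene symbols (bars) by log2 of gene activity (RPKmM) over all active symbols above 0, with active members as ticks in rows of cell cycle genes, transcription genes, other members and the names that are not cyclins. All 14 transcription genes lie at 1.13 RPKmM or above, while the 13 active cell cycle genes spread from 0.86 to 10.28.

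Among the members, genes of the cell cycle were compared with genes of transcription. The 15 cell cycle genes had a median activity of 2.42 RPKmM and the 14 transcription genes 3.23, a ratio of 0.750. The lists overlapped over most of their range. The cell cycle genes held both the highest member, Cdk1, and inactive members, Ccna1 and Ccnb3, whereas the transcription genes were all active and spread 5.56-fold, from Ccnh at 1.13 to Ccnl1 at 6.28. The direction was not the same for cyclins and kinases. Cell cycle cyclins had a median of 2.06 against 3.90 for transcription cyclins (a ratio of 0.528), while the 4 cell cycle kinases had 3.99 against 3.20 for the 7 transcription kinases (a ratio of 1.25). The kinase median of 3.99 lies midway between Cdk6 (2.42) and Cdk4 (5.56). Cdk6 and Cdk2 (2.20) were below the median of the transcription kinases. The ratio over all genes rests on few values near the middle. It turned to 1.03 when genes with another annotated gene on the same strand were left out, which removed the transcription kinases Cdk8, Cdk9 and Cdk12 and the cell cycle cyclin Ccnf. It was 0.454 with geometric means and a pseudocount of 0.01 RPKmM, where the inactive cyclins weigh more, and that of the cyclins was then 0.307. With active genes only the ratio of the cyclins was 0.659, and with every RefSeq entry on its own it was 0.756.

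Among the G1 cyclins, activity was uneven. Cyclin D1, encoded by Ccnd1 (NM_007631, chr7:152115836-152125774 on the minus strand of mm9) and induced by growth factors, had 8.05 RPKmM. Ccnd2 had 2.65, lower than Ccnd1 by 3.04-fold. Ccnd3, whose product is known to accumulate as myoblasts differentiate, had 0.955, lower than Ccnd1 by 8.43-fold. Ccnd3 was also the member whose entries differed most, as NM_001081635 had 0.46 and NM_007632 had 1.45, a ratio of 3.15. Its RefSeq promoter windows start at 47641750 and at 47730166 on the plus strand of chromosome 17, so its transcripts start far apart, but which start belongs to which entry was not analysed here. With the higher entry, Ccnd3 remained below Ccnd2. Of the partner kinases, Cdk4 had 5.56 and Cdk6 2.42, a ratio of 2.30. Ccnd1 thus stood 1.45-fold above Cdk4 and 3.33-fold above Cdk6. Cdk4 is a short gene of 4.39 kb and Cdk6 a long gene of 179 kb.

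The E-type cyclins and Ccnd3 had the lowest levels of the 9 active cell cycle cyclins. Ccne1 had 0.86 RPKmM, equal to the median of all active symbols, and Ccne2 had entries of 1.67 and 1.53. Their kinase Cdk2, which drives DNA replication, had 2.20, above Ccne1 by 2.56-fold and above Ccne2 by 1.38-fold.

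The mitotic genes Cdk1, Ccnb1 and Ccnb2 were among the 12 most active members. Cdk1 (NM_007659, chr10:68799383-68815686 on the minus strand), the kinase that drives entry into mitosis, had 10.28 RPKmM, above Cdk4 by 1.85-fold and above Cdk2 by 4.67-fold. Its cyclins were lower, with 5.36 for Ccnb1, 3.95 for Ccnb2 and 2.57 for Ccna2, so Cdk1 stood 1.92-fold, 2.60-fold and 4-fold above them. The levels of Ccnb1 and Ccnb2 were within 1.36-fold of each other. Ccna2, which binds both Cdk2 and Cdk1, was within 1.17-fold of Cdk2. Ccnf, whose product is an F-box protein that marks other proteins for degradation and does not switch on a CDK, had 2.06.

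Transcription kinases and their cyclins were all active but not matched in level. Over 9 pairs of a transcription cyclin and its kinase, the cyclin was the higher in 4 and the kinase in 5, and the median ratio of cyclin to kinase was 0.897, with a range from 0.357 to 3.0. Over 12 cell cycle pairs the kinase was the higher in 8, with a median ratio of 0.499. Several pairs share a gene, so they are not independent. Only 3 of 9 transcription pairs and 5 of 12 cell cycle pairs were within 2-fold.

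**Figure D3:**
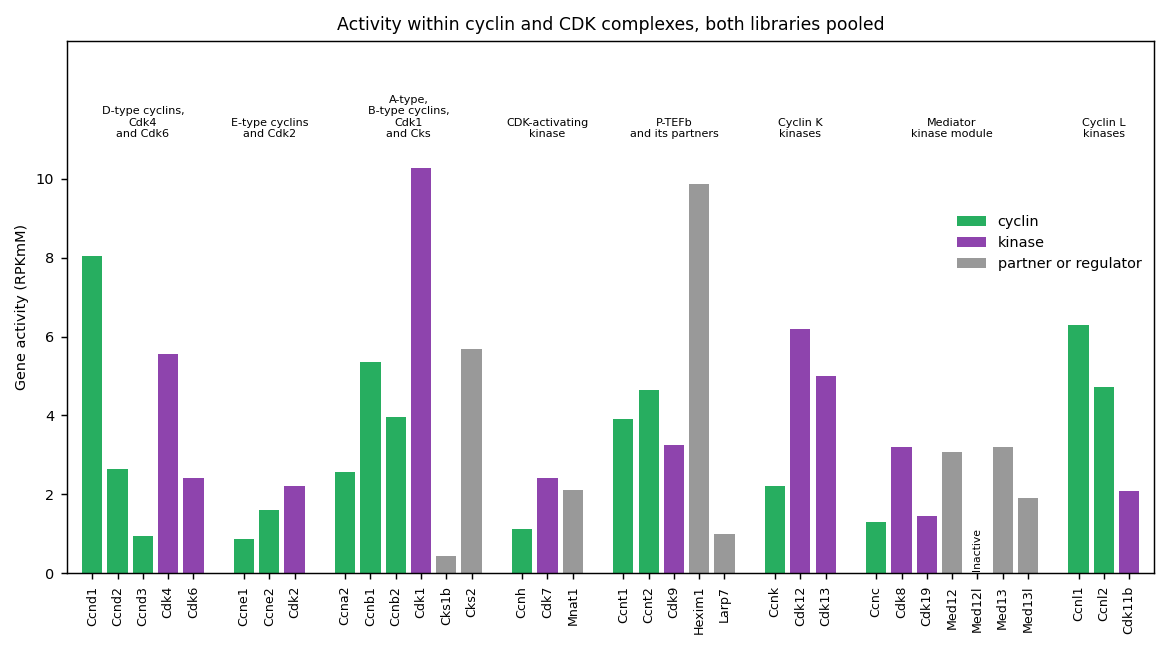
Gene activity (RPKmM, linear axis from 0) of cyclins, kinases and other components, grouped by complex, as single values of the pooled libraries. Cyclin T and Cdk9 genes are near each other (3.25 to 4.64), while cyclin L genes (6.28 and 4.71) stand above Cdk11b (2.09) and Ccnk (2.21) stands below Cdk12 (6.19) and Cdk13 (5.01).

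P-TEFb, the complex of cyclin T and Cdk9, had both its cyclins near its kinase. Ccnt1 had 3.90 RPKmM, Ccnt2 4.64 and Cdk9 3.25, so that the cyclins stood 1.20-fold and 1.43-fold above the kinase. Hexim1, which inhibits P-TEFb, had 9.87, above Cdk9 by 3.04-fold, while Larp7, which binds the small nuclear RNA of the inhibited complex, had 0.99.

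The cyclin K complexes, which phosphorylate the polymerase along gene bodies, had the opposite arrangement from cyclin L. Cdk12 had entries of 6.52 and 5.85 and Cdk13 had 5.01, above Ccnk (2.21) by 2.80-fold and 2.27-fold. Ccnl1 (6.28) and Ccnl2 (4.71), whose products bind Cdk11 and take part in splicing, stood 3.0-fold and 2.25-fold above Cdk11b (2.09). Cdk12 and Cdk13 are genes of 75.4 and 89.1 kb, and Ccnl1 and Ccnl2 are 12.1 kb each.

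The CDK-activating kinase, which phosphorylates other CDKs and is also part of the general factor TFIIH, comprises Cdk7, cyclin H and Mnat1. Cdk7 (2.42 RPKmM) and Mnat1 (2.12) were within 1.14-fold, and Ccnh (1.13), the lowest of the transcription genes, was below Cdk7 by 2.14-fold. In the kinase module of Mediator, Cdk8 (3.20), Med12 (3.08) and Med13 (3.21) were within 1.04-fold of each other. Ccnc, with entries of 1.4, 1.31 and 1.03, and Cdk19 (1.46), the paralogue of Cdk8, were lower, by 2.44-fold and 2.19-fold against Cdk8. Med13l had 1.90 and Med12l was inactive.

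Other kinases ranged from 0.02 to 6.65 RPKmM. Cdk16, with entries of 7.59 and 5.7, and Cdk17 (6.52) had the third and the fourth highest gene values of all members. Ccnl1 (6.28) and Cdk12 (6.19) were close behind, so the order among them carries no weight. Cdk18 (3.52), of the same PCTAIRE family as Cdk16 and Cdk17, was lower than Cdk17 by 1.85-fold. The related pair Cdk14 and Cdk15 was far apart. Cdk14, the longest member at 617 kb, had entries of 1.4 and 1.87, whereas Cdk15 had 0.02. Cdk5, best known for its role in neurons, had 2.65, and of its activators Cdk5r1 had 1.32 and Cdk5r2 was inactive. Cdk10 had 1.43 and Cdk20, a kinase linked to cilia, 0.67.

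Other cyclins had a median of 1.62 RPKmM and none reached the level of the cyclin L or T genes. Ccny (1.81) and Ccnyl1 (2.19), whose products bind Cdk14 and Cdk16, were within 1.21-fold. Ccng1, a target of p53, had 2.07 and Ccng2 had 2.41. Ccni had 1.43 and Ccnj 0.52. Ccno, known from cells with many cilia, had 0.05. The rule also took names that are not cyclins, namely Ccndbp1 (1.61), which encodes a protein that binds cyclin D, and Ccnb1ip1 (0.35), which encodes a ubiquitin ligase of meiotic recombination.

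Of 18 partners and regulators of CDKs outside the rule, 16 (88.9%) were active, against 68.7% of all symbols, with a median over all 18 of 1.59 RPKmM, against 0.26. The inhibitory kinases Wee1 (1.48) and Pkmyt1 (0.84) stood below the phosphatase Cdc25b (2.53), while Cdc25a had 1.57 and Cdc25c 1.07. Of the small CDK-binding proteins, Cks2 had 5.69 and Cks1b 0.44, a ratio of 12.9. Fzr1 had 4.06 and Cdc20 1.60, both activators of the ligase that degrades mitotic cyclins.

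Only 6 members had several entries, all active. The highest entry stood 1.09-fold over the lowest for Ccne2, 1.11-fold for Cdk12, 1.33-fold for Cdk16, 1.34-fold for Cdk14 and 1.36-fold for Ccnc, and only Ccnd3 exceeded 1.5-fold. That is 1 of 6 genes, against 22.1% of the 2273 symbols with several active entries above 0. Entries of a gene are not replicates, and these folds are not replicate error.

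Neighbouring genes could add reads where they lie on the same strand. In the mm9 annotation, 7 members overlap another gene on their strand. For Cdk10 this is a protein-coding gene, Gm20388, for Cdk8 a pseudogene and a miRNA, and for Cdk9, Cdk12, Cdk14, Cdk17 and Ccnf only small RNA genes. A further 17 members overlap genes on the opposite strand only, as Ccnd1 with Oraov1 (0.75 RPKmM) and Cdk4 with Tspan31 (4.18), whose sense reads do not count towards the member. The part of overlapping genes in the levels was not tested.

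By gene length, the 15 shortest members (2.98 to 9.59 kb) had a median of 2.07 RPKmM, the 17 of middle length 3.52 and the 15 longest (33.9 to 617 kb) 1.81. The highest of the longest genes was Cdk17, at 6.52, and the highest of the shortest Cdk4, at 5.56.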

How the data were processed

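GRO-seq was performed on 2 replicate libraries of C2C12 myoblasts. The authors called bases with CASAVA 1.8 (per the labels), mapped reads to mm9 with Bowtie2 (version not given in the sources used here), kept unique reads, removed those at rRNA and tRNA repeats, pooled both libraries, and deposited gene activity in RPKmM, rounded to 2 decimals, for RefSeq genes of at least 2 kb on chromosomes 1 to 19 and X. Unique mapping removes reads shared with near-identical copies, and pooling hides the variation between libraries. The word Inactive fills 7208 cells, so the range of the unit could not be checked automatically.

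A gene was given the median of its active entries, and inactive genes were ranked lowest in medians. Groups are lists of genes by their known role. The members and lists were chosen with earlier results of these data known, and every member was named. Cdk3, Cdk11a, Ccnq and Ccnp, also in the lists, were not analysed here. Positions came from the GENCODE vM1 annotation of mm9 (NCBIM37) and promoters from RefSeq (GRCm38.p6). No test across replicates was possible. An alternative was taken as moved where it differed by more than 1.5 times. Python 3.11.15, numpy 2.4.6, pandas 2.3.3, scipy 1.17.1 and matplotlib 3.10.9 were used.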

Additional observations from a re-analysis of the deposited data

How the results depend on the processing

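Of 31 alternative values, 27 stayed within 1.5 times of the main value and, for ratios, kept its direction. Several of them equal the main value, as few members have several entries and no kinase was inactive. Such alternatives could hardly differ, so this count does not measure how firm the results are. The ratio of cell cycle to transcription genes (0.750) turned to 1.03 without genes that overlap another on the same strand, which leaves 14 cell cycle genes (without Ccnf) and 11 transcription genes (without Cdk8, Cdk9 and Cdk12). Geometric means with a pseudocount moved this ratio to 0.454, that of cyclins (0.528) to 0.307 and the median of all members (2.20 RPKmM) to 1.45, since inactive genes then enter at 0. Toward the other side, the ratio of cyclins was 0.659 with active genes only and 0.756 with every RefSeq entry on its own. The ratio of kinases ranged from 1.24 to 1.77 and stayed above 1. The number of active genes was 42 at a minimum of 0.1 RPKmM. No paired analysis was possible because the libraries form a single group and were pooled, and leaving out a replicate was not run for that reason. The table is rounded to 2 decimals, so levels near 0.01 RPKmM, such as that of Cdk15, are coarse.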

Other observations

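Some members are close neighbours on a chromosome, and their levels differed. On chromosome 13, Cdk7 (101466982 to 101500897) and Ccnb1 (101548605 to 101556525) lie on the minus strand, 47.7 kb apart, with 2.42 and 5.36 RPKmM, a ratio of 2.21. On chromosome 4, Cdk11b (154998963 to 155024047) and its partner Ccnl2 (155186598 to 155198652) lie on the plus strand, 163 kb apart with 11 protein-coding genes between them, and had 2.09 and 4.71, a ratio of 2.25. On chromosome 5, Ccni (93610959 to 93635521, minus strand) and Ccng2 (93696283 to 93705257, plus strand) point away from each other, 60.8 kb apart, with 1.43 and 2.41, a ratio of 1.69. These are all pairs of members within 200 kb of each other in the mm9 annotation, and no test was made of them.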
